A study of Mus musculus with 29 samples.

Results

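Osteoblast matrix and mineralisation genes were followed across 3 cell populations of the mouse bone marrow niche, the surroundings that hold blood stem cells. The 10 genes are Col1a1, Col1a2, Spp1, Ibsp, Sparc, Bglap, Bglap2, Alpl, Sp7 and Runx2, taken as named rows from a table of 18194 genes; all 10 were present, and 5 of them (Col1a1, Col1a2, Spp1, Ibsp and Sparc) passed the filter on low counts, as did 1099 genes in all. The populations were sorted by flow cytometry and are abbreviated here as the labels do: OBC for the osteoblastic cells, EC for the endothelial cells, and MSC for the mesenchymal ones. Each came from niches of wild-type (WT) mice or of mice labelled Wnt5a, which the study design describes as Wnt5a-haploinsufficient, meaning that a single working allele encodes the secreted protein WNT5A. There were 3 libraries for each population and genotype, 18 in all, and all carry the strain label 129Ly5.1. The sources used here do not give the age of the mice, the kind of Wnt5a allele, the number of animals or cells in a library, or whether the niche mice had been hosts of a transplant. Nor do the labels say that libraries came from separate animals, so p-values measure the spread between these libraries, which may in part be technical.

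Osteoblasts build bone by secreting a matrix that is mostly type I collagen, a rope of 2 kinds of chain, and then loading it with mineral. Acidic proteins such as osteopontin, bone sialoprotein and osteocalcin bind that mineral, and tissue-nonspecific alkaline phosphatase frees the phosphate it is made of. The transcription factors RUNX2 and osterix, the product of Sp7, are needed for a cell to become an osteoblast. Osteoblasts and their precursors line the bone surface next to the marrow and are counted among the cells of the blood stem cell niche.

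Expression was read as unique molecular identifiers (UMIs), barcodes that let each captured transcript be counted once. Library totals ran from 10635 to 117989 UMIs, and OBC was the shallowest population, with 26088, 29772 and 10635 UMIs in WT replicates 7, 8 and 9 and 17874, 17577 and 13726 in Wnt5a replicates 10, 11 and 12. Levels below are in CPM, the UMIs of a gene scaled so that the tested genes of every library have the same TMM-adjusted total, and 3 UMIs correspond to 35.9 to 461 CPM depending on the library. The level of Wnt5a itself in these libraries was not analysed here, so the genotype labels have no check in the table. 1 library stands apart in make-up, EC WT replicate 14, with 24.3% of its UMIs from haemoglobin genes against 1.90 to 11.96% in the other 17.

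The genes lie on 7 chromosomes in GRCm38. The collagen chains are apart, Col1a1 (ENSMUSG00000001506) at chr11:94936224-94953042 on the plus strand and Col1a2 (ENSMUSG00000029661) at chr6:4504814-4541544 on the plus strand. Ibsp (ENSMUSG00000029306), at chr5:104299171-104311469, and Spp1 (ENSMUSG00000029304), at chr5:104435118-104441050, are neighbours on the plus strand of chromosome 5, 123649 bp apart. The osteocalcin genes Bglap2 (ENSMUSG00000074486), at chr3:88377736-88378699, and Bglap (ENSMUSG00000074483), at chr3:88383501-88384464, lie 4802 bp apart on the minus strand. Their main transcripts share 434 of 440 aligned bases (98.6%), with a stretch of 241 identical bases, so UMIs of the copies can be exchanged in counting and the split between them is uncertain. Sparc (chr11:55394500-55423183), Alpl (chr4:137741733-137796384), Sp7 (chr15:102356606-102367182) and Runx2 (chr17:44495987-44814797) are all on the minus strand. All 10 are annotated as protein-coding.

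Promoter sequences are shown for a collagen gene and the genes of mineral-binding proteins, as the start regions of the bone matrix genes described below. RefSeq (GRCm38.p6) gave the 250 bases before the start site for 7 of the 10 genes, and those of Spp1 (chr5:104434861-104435110, plus strand), Ibsp (chr5:104299037-104299286, plus strand), Bglap (chr3:88384467-88384716, minus strand) and Col1a2 (chr6:4505368-4505617, plus strand) follow, 5′ to 3′ on the strand of the gene. Capitals mark every match on either strand to 4 short motifs: TGTGGT, the core bound by RUNX factors; TATAAA, the TATA box; CCAAT; and the GC box GGGCGG.
Spp1: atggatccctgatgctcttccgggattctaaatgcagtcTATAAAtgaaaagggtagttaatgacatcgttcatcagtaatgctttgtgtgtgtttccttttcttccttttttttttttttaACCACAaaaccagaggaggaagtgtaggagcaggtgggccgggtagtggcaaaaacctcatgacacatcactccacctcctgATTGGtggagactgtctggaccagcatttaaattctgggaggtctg
Ibsp: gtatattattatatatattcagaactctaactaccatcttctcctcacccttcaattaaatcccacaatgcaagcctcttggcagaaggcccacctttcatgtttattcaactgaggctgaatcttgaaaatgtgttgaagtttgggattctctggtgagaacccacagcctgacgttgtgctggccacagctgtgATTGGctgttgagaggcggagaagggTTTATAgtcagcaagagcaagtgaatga
Bglap: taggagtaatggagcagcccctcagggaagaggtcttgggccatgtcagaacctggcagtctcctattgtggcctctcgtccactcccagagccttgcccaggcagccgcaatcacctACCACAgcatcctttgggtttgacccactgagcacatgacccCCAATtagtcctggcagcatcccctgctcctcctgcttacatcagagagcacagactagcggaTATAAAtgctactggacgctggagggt
Col1a2: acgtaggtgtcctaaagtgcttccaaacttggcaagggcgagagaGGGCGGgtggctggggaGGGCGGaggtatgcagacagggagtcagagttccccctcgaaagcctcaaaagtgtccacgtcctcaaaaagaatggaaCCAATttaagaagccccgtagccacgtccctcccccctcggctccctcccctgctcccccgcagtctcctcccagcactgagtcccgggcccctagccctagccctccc
The RUNX core was present in 3 of the 7 genes with a window, as ACCACA (its reverse complement) starting 132 bases before the start of Bglap, 128 before that of Spp1 and 80 before that of Runx2. The 7 genes have 9 windows, and a second Spp1 window (chr5:104435942-104436191) holds none of the 4 motifs. Of 32851 RefSeq windows of this length, 14.05% hold the RUNX core, and 15.9% of 27025 genes hold it in at least 1 window. Ibsp had no RUNX core in this window, but a TTTATA, the TATA motif on the opposite strand, 28 bases before its start, and Bglap a TATAAA 27 bases before its start; 12.4% of windows hold that motif. In Spp1 the TATAAA lies farther out, 211 bases before the start. A CCAAT motif, found in 33.8% of windows, was present in all of the 4 printed sequences, and the Col1a2 window also holds GGGCGG at 2 places (32.7% of windows hold it). These are matches of letters and not sites shown to be bound. Distances are from the RefSeq start, which differs from the GENCODE gene start used for the positions above: the GENCODE start lies upstream of the whole Col1a2 window and inside the Ibsp window.

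Bone matrix transcripts marked the OBC libraries. Col1a1, Col1a2, Spp1 and Ibsp, 4 of the 5 tested genes, were higher in OBC than in the mean of EC and MSC, while Sparc was not; 19.3% of all tested genes were higher in OBC. Spp1 and Ibsp passed the filter only through their OBC libraries, so that they had to differ, and their count is no support by itself. With no filter on low counts both were still higher, by 4.001 for Spp1 (edgeR adjusted p = 8.60e-11) and 5.22 for Ibsp (edgeR adjusted p = 7.07e-23). The first comparison asks how far the osteoblastic label is borne by these genes and in which order the populations carry them.

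Col1a1, which encodes the alpha-1 chain of type I collagen, had 118, 155 and 21 UMIs in OBC WT replicates 7, 8 and 9, or 8887, 10779 and 3229 CPM. In OBC Wnt5a replicates 10, 11 and 12 it had 22, 30 and 8 UMIs, or 2133, 3038 and 1012 CPM. MSC libraries held 500 to 674 CPM in WT and 146 to 915 CPM in Wnt5a, and EC libraries 33.8 to 76.4 and 52.4 to 75.7 CPM. Every OBC library thus lay above every MSC and EC library. The log2 difference of OBC from the mean of the other populations was 4.49 (SE 0.30, edgeR adjusted p = 4.29e-17). MSC in turn was higher than EC by 3.06 (SE 0.44, edgeR adjusted p = 9.33e-07), which gives the order OBC, MSC, EC.

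Col1a2, the alpha-2 chain, had 176, 167 and 15 UMIs in OBC WT, or 13255, 11614 and 2307 CPM, and 27, 38 and 15 UMIs in OBC Wnt5a, or 2618, 3848 and 1898 CPM. MSC stood at 702 to 1103 CPM in WT and 315 to 949 in Wnt5a, and EC at 59.8 to 135 and 65.5 to 214. The groups of the 3 populations again did not overlap. OBC exceeded the others by 4.12 (SE 0.30, edgeR adjusted p = 1.00e-14). MSC was above EC by 2.81 (SE 0.42, edgeR adjusted p = 4.11e-06). Of the 5 tested members the collagen chains alone passed as higher in MSC than in EC, where 2.73% of tested genes were higher. Within OBC the Col1a1 share of the UMIs of both chains was 40.1, 48.1 and 58.3% in WT and 44.9, 44.1 and 34.8% in Wnt5a, and the ranges overlapped.

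Spp1 encodes osteopontin, a phosphoprotein that binds mineral and cells. It had 27, 36 and 6 UMIs in OBC WT, or 2033, 2504 and 923 CPM, and 3, 4 and 2 UMIs in OBC Wnt5a, or 291, 405 and 253 CPM. Outside OBC it was near absent, with UMIs in 2 of 6 EC and 3 of 6 MSC libraries and at most 5 in a library. All OBC libraries lay above all the others, but those of OBC Wnt5a rest on 2 to 4 UMIs each. Replicate 12, at 253 CPM, was under the 380 CPM that 3 UMIs make in that library. The log2 difference from the other populations was 4.56 (SE 0.60, edgeR adjusted p = 1.76e-08). MSC and EC could not be ordered (0.99, SE 0.85, edgeR adjusted p = 0.636).

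Ibsp, bone sialoprotein, starts mineral crystals in new bone and is one of the more bone-restricted matrix genes. It had 31, 45 and 7 UMIs in OBC WT, or 2335, 3129 and 1076 CPM, and 8, 9 and 0 UMIs in OBC Wnt5a, or 776, 911 and 0 CPM. The 12 other libraries held at most 3 UMIs each. The zero in OBC Wnt5a replicate 12 allows up to 380 CPM, the level of 3 UMIs. The log2 difference of OBC from the others was 5.76 (SE 0.51, edgeR adjusted p = 5.67e-13), a size that rests on a handful of UMIs on the other side. Pooled over libraries, OBC WT had 83 of 66495 UMIs and EC and MSC WT together 3 of 429805, a ratio of 179 with a 95% exact interval of 59.1 to 885 for counting error only. MSC and EC were not told apart (2.05, SE 0.96, edgeR adjusted p = 0.294).

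Sparc encodes osteonectin, a collagen- and calcium-binding protein that is abundant in bone but also made by endothelium and other stroma. It had 92, 39 and 17 UMIs in OBC WT, or 6929, 2712 and 2614 CPM, and 8, 23 and 18 in OBC Wnt5a, or 776, 2329 and 2278 CPM. EC WT held 4711, 2179 and 3468 CPM and EC Wnt5a 1287, 3771 and 2989 CPM. MSC WT held 2635, 2230 and 2361 CPM and MSC Wnt5a 1386, 1660 and 2134 CPM. The libraries of the 3 populations overlapped. The log2 difference of OBC was 0.11 (SE 0.27, edgeR adjusted p = 0.755), and its sign turned with RLE scaling (-0.021), plain library totals (-0.39), no filter (-0.44) and DESeq2 (-0.018). Of the UMIs of all 10 genes, not scaled by length, Sparc took 89.4% ± 2.66 in EC WT and 58.0% ± 4.51 in MSC WT, against 17.6% ± 8.34 in OBC WT (SD, n = 3 each). Across the 18 libraries the scaled profile of Sparc had a Pearson r of 0.11 with the mean profile of the other 4 tested genes. Each of those 4, set in the same way against the mean of the remaining tested genes, had 0.84 to 0.93. These points share libraries and depth.

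**Figure D1:**
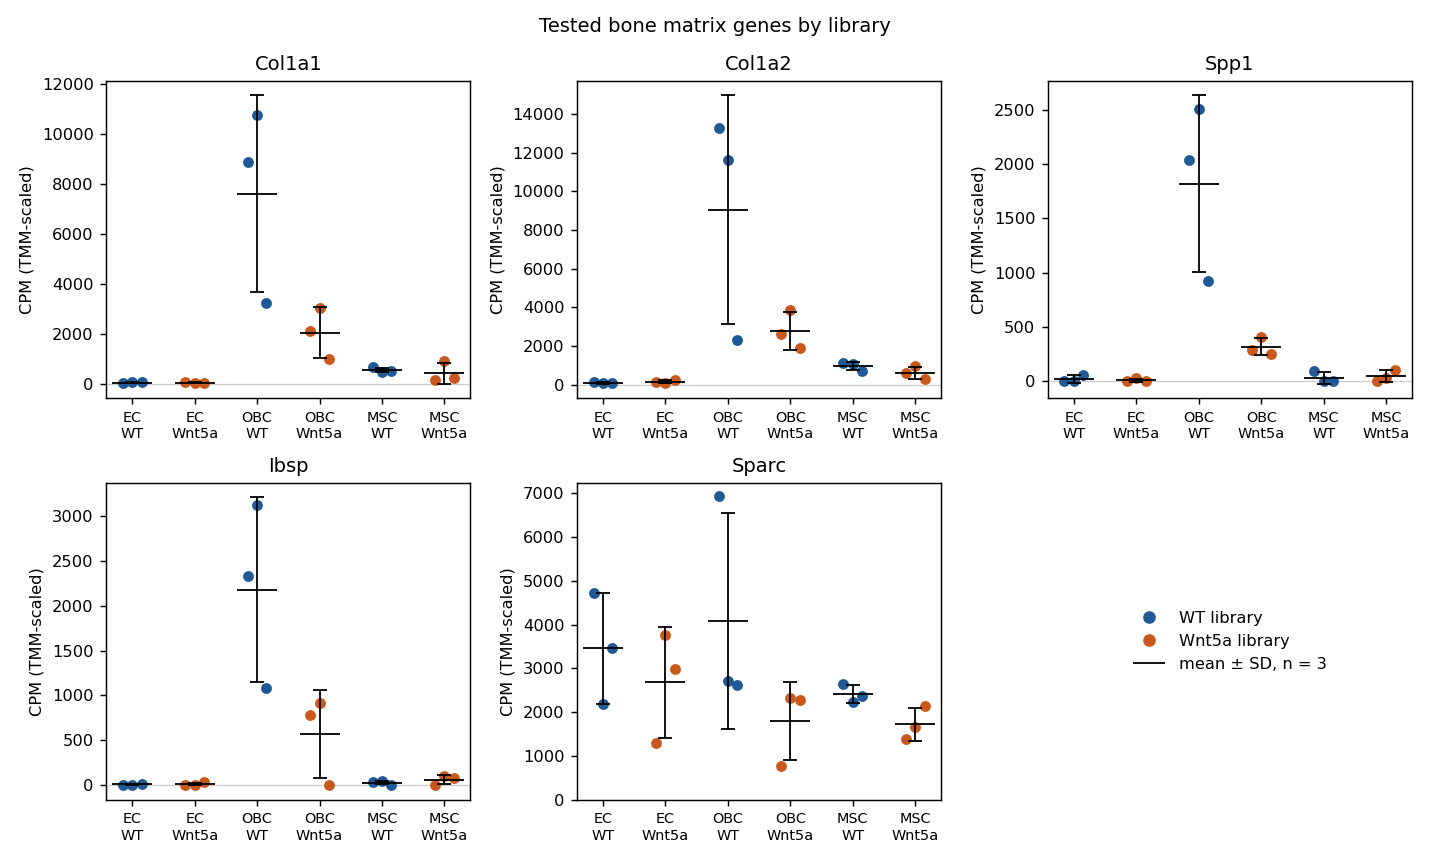
Levels of the 5 tested genes in each library (points), in CPM after TMM scaling, with mean ± SD of 3 libraries per group. Col1a1, Col1a2, Spp1 and Ibsp have their highest values in OBC WT libraries, where replicate 9 (right-hand point) is the lowest for each of the 4. For Col1a2 that library lies between the OBC Wnt5a libraries. The Sparc libraries of the 3 populations overlap, from 776 to 6929 CPM.

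The other 5 genes stayed below the filter and have no test. Osteocalcin, a late product of mature osteoblasts that carries calcium-binding residues, was counted mostly on Bglap. That gene had 20, 7 and 0 UMIs in OBC WT and 1, 3 and 0 in OBC Wnt5a, and 0 to 4 in any EC or MSC library. Replicate 7 alone thus gave 20 of the 27 UMIs of OBC WT. Pooled, Bglap was higher in OBC WT than in EC and MSC WT together by a ratio of 24.9 (95% exact interval 10.6 to 67.8 for counting error only). Bglap2 had 4, 0 and 0 UMIs in OBC WT and 0, 1 and 0 in OBC Wnt5a, with at most 2 in any EC or MSC library.

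Alpl, which encodes tissue-nonspecific alkaline phosphatase, did not follow the matrix genes. OBC WT libraries had 7, 3 and 0 UMIs and OBC Wnt5a libraries 0, 1 and 1, while every EC library had 4 to 19 and every MSC library 1 to 6. Pooled over WT libraries, OBC had 150 Alpl CPM of all UMIs (95% exact Poisson interval 72.1 to 277), EC 125 (87.9 to 172) and MSC 112 (63.0 to 186). These intervals overlap and cover counting error only.

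The transcription factor genes were at the limit of detection. Sp7 had 1, 1 and 1 UMI in OBC WT, 1, 0 and 0 in OBC Wnt5a, and 0 in all 12 EC and MSC libraries. Runx2 had 0, 2 and 1 in OBC WT, 0 in all OBC Wnt5a and all EC libraries, and 1 UMI in MSC Wnt5a replicate 6. A count of 0 in the pooled OBC Wnt5a libraries allows up to 61.0 CPM of all UMIs, above the 45.1 found in OBC WT, so a genotype difference in Runx2 was not detectable at this depth.

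**Figure D2:**
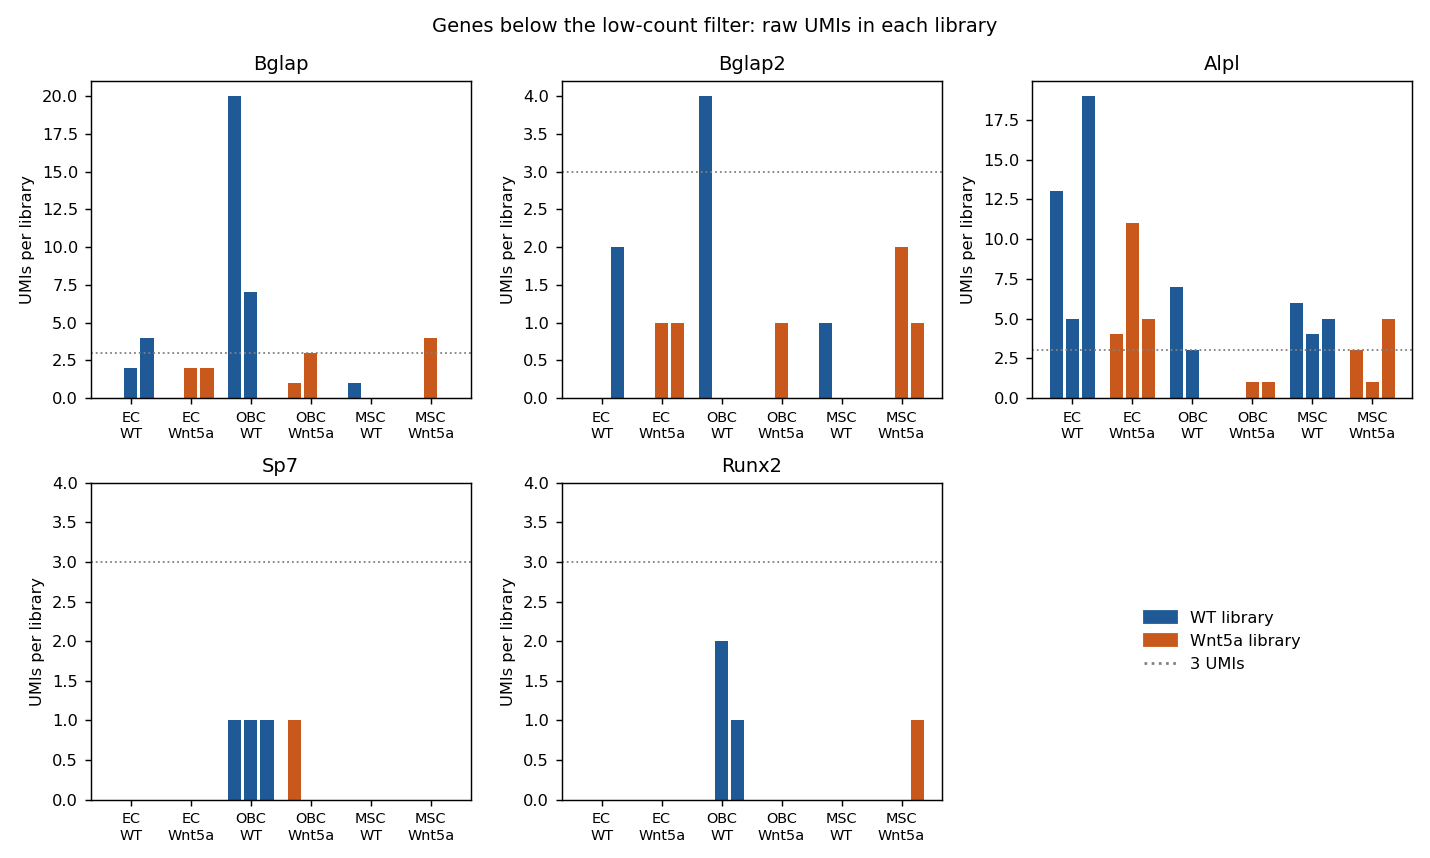
UMIs of the 5 genes below the filter, 1 bar per library in replicate order, with a dotted line at 3 UMIs. Bglap reaches 20 UMIs in a single OBC WT library, Alpl has UMIs in every EC and MSC library, and Sp7 has UMIs in OBC only.

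Markers of other cells give the setting of these levels. In OBC the endothelial list took 0.527 to 1.25% of UMIs, against 1.88 to 3.99% in EC. The chondrocyte list took 0.00940 to 0.0403% in OBC, 0.0197 to 0.0725% in MSC and 0.00350 to 0.0270% in EC. Its gene Acan had 0 UMIs in all 18 libraries. The cartilage collagen Col2a1 had 1 to 6 UMIs in every OBC library, 0 in EC and MSC WT, and 3 in MSC Wnt5a together. The macrophage list took 0.0282 to 0.0910% in OBC, 0.0108 to 0.0788% in EC and 0.0110 to 0.0408% in MSC. Of its 11 genes in the table, 1 to 5 had UMIs in an OBC library. Its gene Csf1r had 1 UMI over the 18 libraries together, in an MSC library. The mesenchymal and fibroblast list took 0.188 to 0.554% in OBC and 0.0945 to 0.277% in EC. Its gene Pdgfra, of mesenchymal precursors, had 0 UMIs in the OBC libraries, while its gene Dcn had 36 in OBC WT and 32 in OBC Wnt5a. Lepr, of marrow stromal cells, had 18 in OBC WT and 4 in OBC Wnt5a. The osteocyte gene Dmp1 had 0 UMIs in OBC WT and 2 in OBC Wnt5a. Phex had 4 UMIs in OBC WT, 2 in OBC Wnt5a and 0 in EC and MSC. The endothelial list took 1.78 to 3.31% of UMIs in MSC, near its share in EC, and mesenchymal and fibroblast genes took 0.750 to 1.91% there. Pdgfra had 1 to 5 UMIs in each MSC library and 0 to 2 in each EC library. These are bulk libraries, in which fewer cells of a type and less RNA per cell cannot be told apart.

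With all libraries in the fit, type I collagen and osteopontin transcripts passed as lower in OBC of the Wnt5a genotype. Without OBC WT replicate 7, OBC WT replicate 8 or OBC Wnt5a replicate 12, 0 of the 5 tested genes passed. Of the 5 tested genes, Col1a1, Col1a2 and Spp1 passed the test as lower and 0 as higher, where 1.18% of all 1099 genes passed as lower and 0.091% as higher. All 5 log2 fold changes were negative, with a median of -1.89, against -0.01 over all genes tested. Spp1 and Ibsp are in that count and median though they passed the filter only through OBC libraries, so neither is support by itself. Spp1 had entered the test only through the 3 OBC WT libraries, the group in which it is high, so its call does not stand on the same footing as those of the collagen chains, which also passed the filter in MSC. With no filter on low counts the same 3 genes were lower, with log2 fold changes of -1.98 for Col1a1, -1.84 for Col1a2 and -2.63 for Spp1 (edgeR adjusted p = 0.00300, 0.00637 and 0.0303). Col1a1 was at 2061 ± 1015 CPM in Wnt5a and 7632 ± 3928 CPM in WT (SD, n = 3 each), 3.72-fold lower in the fit (log2 fold change -1.89, SE 0.43, edgeR adjusted p = 0.0122). The comparison addresses how OBC from niches labelled Wnt5a differ from those of wild-type niches.

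Spp1 had the lowest ratio of the 5 tested members, 316 ± 79.1 CPM in Wnt5a and 1820 ± 812 in WT (-2.55, SE 0.67, edgeR adjusted p = 0.0411). Col1a2 passed narrowly, with 2788 ± 986 CPM in Wnt5a and 9058 ± 5905 in WT (-1.72, SE 0.45, edgeR adjusted p = 0.0430). Bone sialoprotein did not pass: Ibsp averaged 562 ± 492 CPM in Wnt5a and 2180 ± 1035 in WT (-1.93, SE 0.55, edgeR adjusted p = 0.0755). Nor did Sparc, with 1794 ± 883 CPM in Wnt5a and 4085 ± 2463 in WT (-1.22, SE 0.46, edgeR adjusted p = 0.333). In rank from the lowest log2 fold change of the 1099 genes, Spp1 was 27, Ibsp 47, Col1a1 52, Col1a2 60 and Sparc 121.

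Library by library, the separation was close. For Col1a1, Spp1, Ibsp and Sparc each Wnt5a library was lower than the lowest WT library, which held for 6.46% of all tested genes. Spp1 entered the test only through OBC WT libraries and Ibsp only through OBC libraries, so their separation is no support by itself. For Col1a2, WT replicate 9 at 2307 CPM lay between the Wnt5a libraries. That WT library was the lowest of its group for each of the 5 genes and had the fewest UMIs of all 18. Its Col1a1, at 3229 CPM, was near the 3038 CPM of Wnt5a replicate 11, and its Sparc, at 2614, near 2329. The high values of Col1a1, Col1a2, Spp1 and Ibsp thus came from WT replicates 7 and 8, and that of Sparc from replicate 7 alone, without which its log2 fold change was -0.58 (edgeR adjusted p = 0.875).

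The calls rested on few libraries. Without WT replicate 7 or WT replicate 8, 0 of the 5 genes passed (edgeR adjusted p of Col1a1 0.0884 and 0.162), and the same held without Wnt5a replicate 12 (0.143). Without Wnt5a replicate 10 or 11 only Col1a1 passed. Without WT replicate 9, 4 passed: Col1a1 (-2.25, edgeR adjusted p = 0.000274), Col1a2 (-2.17, 0.000285), Spp1 (-2.84, 0.00521) and Ibsp (-2.21, 0.0186). Among the libraries of the other populations, which enter through the shared spread and the number of genes tested, leaving out EC Wnt5a replicate 16 took the call from Col1a2 (0.0623). Leaving out EC WT replicate 14 (0.0285), EC WT replicate 15 (0.0391) or MSC Wnt5a replicate 4 (0.0494) gave one to Ibsp. Col1a2 also did not pass with plain library totals, totals over all genes, DESeq2 or limma voom (adjusted p from 0.0514 to 0.198), nor Spp1 with plain totals (0.103) or limma voom (0.0749). The sign stayed negative for all 5 genes without any 1 of the 6 OBC libraries.

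**Figure D3:**
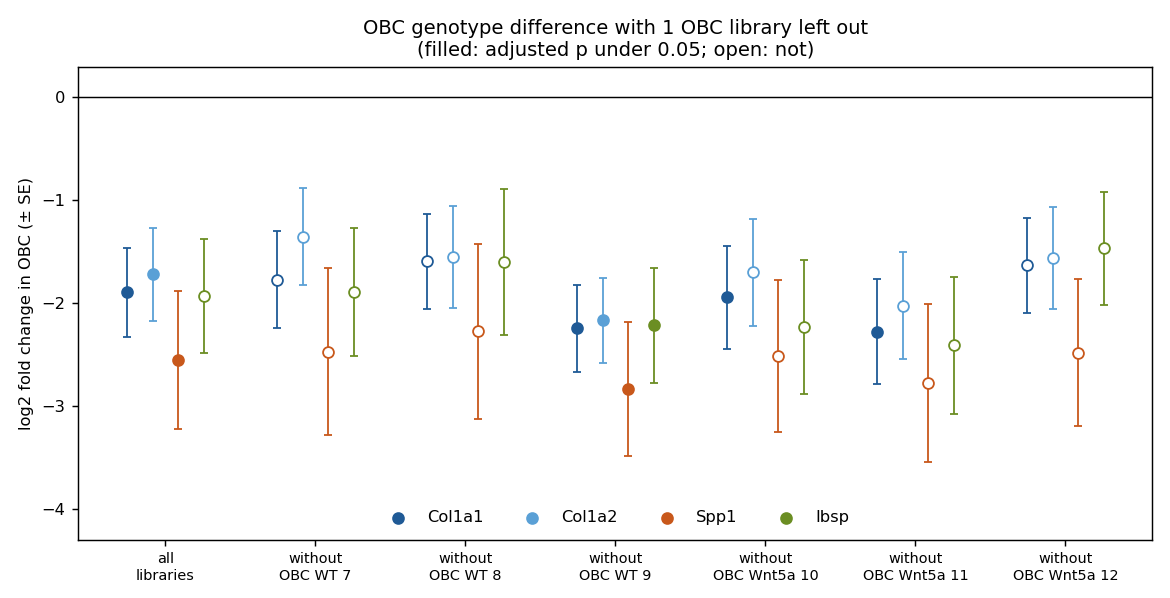
Log2 fold change of Wnt5a over WT in OBC (± SE) for Col1a1, Col1a2, Spp1 and Ibsp, with all libraries and with each OBC library left out; filled points have an adjusted p under 0.05. All points lie below 0, while the filled ones are 3 with all libraries, 4 without WT replicate 9, and 0 or 1 otherwise.

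Among the genes without a test, pooled Bglap was 27 of 66495 UMIs in OBC WT and 4 of 49177 in OBC Wnt5a, a ratio of 4.99 (95% exact interval 1.74 to 19.6 for counting error only, and WT replicate 9 and Wnt5a replicate 12 were both at 0). Alpl was 10 and 2 UMIs (3.70, 0.788 to 34.7) and Bglap2 4 and 1 UMIs (2.96, 0.293 to 146). Both intervals include 1. Tested with no filter, Bglap came out at -2.46 (SE 0.87, adjusted p = 0.935 in edgeR).

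Other transcripts moved with the same libraries. The 10 genes together took 1.82, 1.53 and 0.639% of all UMIs in OBC WT and 0.392, 0.620 and 0.321% in OBC Wnt5a. Transcripts of the mitochondrial genome took 17.1, 17.1 and 11.96% and 8.39, 8.47 and 3.57%, and all 13 tested mitochondrial genes were negative (median -1.89), of which 7 passed as lower. Haemoglobin genes went the other way, with 3.42, 3.51 and 6.47% in WT and 5.16, 8.41 and 11.96% in Wnt5a. So did the 14 neutrophil genes, with 0.272, 0.480 and 0.517% and 0.694, 0.939 and 0.641%. By genotype in OBC, 0 of the 5 tested neutrophil genes and 0 haemoglobin genes passed. The neutrophil share was also higher in Wnt5a in EC (mean 0.218 against 0.0432%, 4 of 5 genes passing). In MSC it was 0.346 against 0.141%, with 1 gene passing. The mean mitochondrial share was higher in Wnt5a in EC (2.55 against 1.68%) and MSC (3.49 against 2.103%), opposite to OBC. WT replicate 9 lay next to the Wnt5a libraries for the bone matrix genes, and for mitochondrial and haemoglobin transcripts it lay on the Wnt5a side of the other WT libraries. The stromal list, of genes of CXCL12-abundant reticular cells, took 1.54, 1.48 and 0.987% in OBC WT and 1.55, 0.518 and 0.743% in OBC Wnt5a. Of its 12 tested genes 10 were negative (median -0.67), 2 had an unadjusted p under 0.05 and 0 passed edgeR's test, and Lepr had 10, 8 and 0 UMIs in WT and 3, 1 and 0 in Wnt5a. The part of these transcripts in the result was not tested. With mitochondrial, haemoglobin and immunoglobulin genes taken out before scaling, Col1a1 was at -1.90 (edgeR adjusted p = 0.0250). Col1a2 (-1.73) and Spp1 (-2.56) did not pass there (edgeR adjusted p = 0.0750 for each). That removal changes the scaling and the genes tested, not the make-up of a library. Of the 197 other genes higher in OBC, without the 10 genes and the mitochondrial genome, 75 were negative and 122 positive in the genotype comparison (median 0.23), and 2 of them passed as lower.

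**Figure D4:**
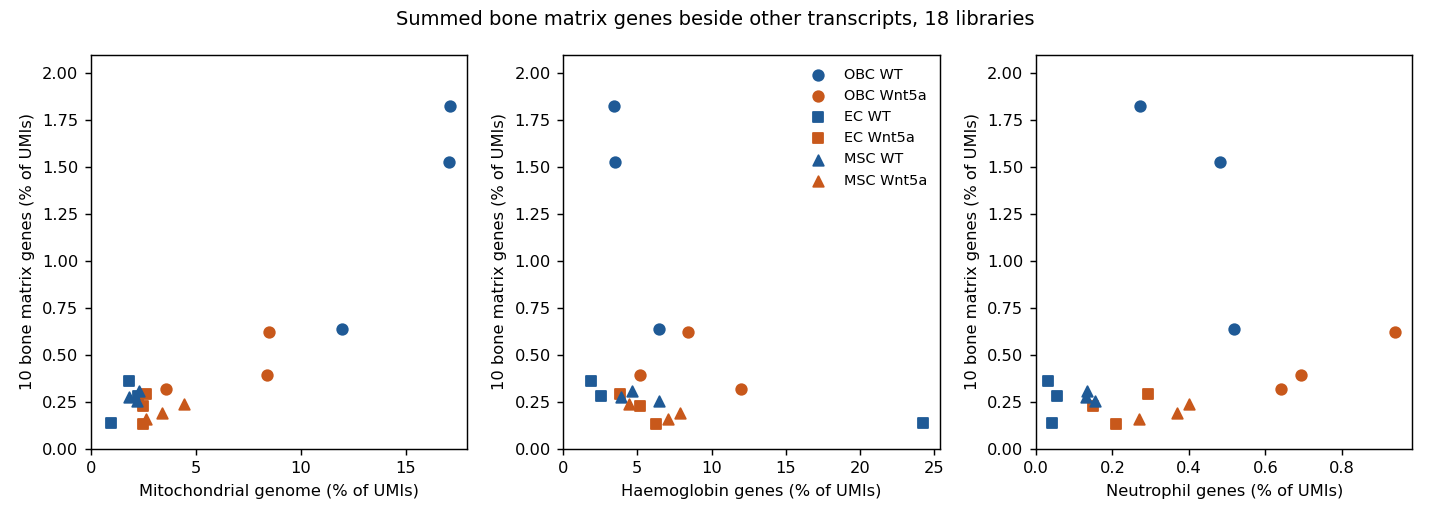
Share of UMIs from the 10 bone matrix genes against the share from the mitochondrial genome, haemoglobin genes and neutrophil genes, 1 point per library; circles are OBC, squares EC and triangles MSC, blue WT and orange Wnt5a. The OBC WT libraries at 1.82 and 1.53% stand apart at high mitochondrial and low haemoglobin shares, and the OBC WT library at 0.639% lies beside the Wnt5a library at 0.620%.

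EC and MSC showed no genotype difference in these genes that passed the test. In EC, 0 of 5 members passed with edgeR, DESeq2 or limma voom and 0 had an unadjusted p under 0.05, where 0.364% of all genes passed (4 genes, 89 unadjusted). In MSC the members' counts were the same, where 0.455% of all genes passed (5 genes, 203 unadjusted). Col1a1 had log2 fold changes of -0.13 (SE 0.77) in EC and -0.25 (SE 0.50) in MSC, and Col1a2 0.51 (SE 0.69) and -0.62 (SE 0.50). Sparc, the best counted member there, had -0.32 in EC (SE 0.40, edgeR adjusted p = 0.875) and -0.46 in MSC (SE 0.42, edgeR adjusted p = 0.589). In MSC its Wnt5a libraries were each lower than its lowest WT library, as were those of 12.9% of all genes. Spp1 and Ibsp had too few UMIs outside OBC for their values (-0.57 and 0.41 in EC, 0.67 and 1.46 in MSC, SE 1.16 to 1.41) to be read in either direction.

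**Figure D5:**
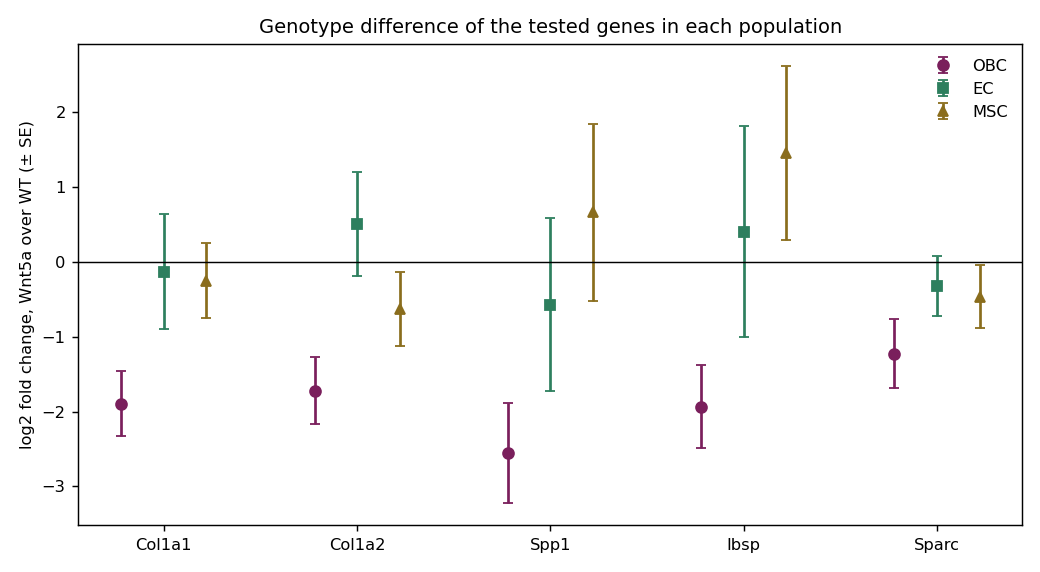
Log2 fold change of Wnt5a over WT (± SE) for the 5 tested genes in OBC (circles), EC (squares) and MSC (triangles). The OBC values run from -2.55 to -1.22 and the EC and MSC values lie on both sides of 0, with wide errors for Spp1 and Ibsp.

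Whether the genotype difference was larger in OBC than in the mean of EC and MSC was tested directly, and 0 of the 5 genes passed with edgeR, DESeq2 or limma voom, against 0.91% of all genes (10 genes, 105 unadjusted). The differences of log2 fold changes were -1.70 for Col1a1 (SE 0.66, edgeR adjusted p = 0.385), -1.66 for Col1a2 (SE 0.62, 0.372), -2.60 for Spp1 (SE 1.25, 0.487), -2.87 for Ibsp (SE 1.44, 0.518) and -0.83 for Sparc (SE 0.54, 0.664). Col1a1, Col1a2 and Spp1 had an unadjusted p under 0.05. Without OBC WT replicate 9 Col1a2 passed (-2.10, edgeR adjusted p = 0.0482). The genotype difference in OBC is thus not shown to be larger than that in the other populations.

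Within the Wnt5a libraries, 4 of the 5 tested members were higher in OBC, and Sparc was not (-0.31, SE 0.41, edgeR adjusted p = 0.624). Of these 4, Spp1 and Ibsp passed the filter only through OBC libraries, so their count is no support by itself, here or within WT. The log2 difference of OBC from the mean of EC and MSC was 3.63 for Col1a1 (SE 0.46, edgeR adjusted p = 6.41e-08), 3.29 for Col1a2 (SE 0.45, edgeR adjusted p = 8.09e-07), 4.33 for Ibsp (SE 0.76, edgeR adjusted p = 4.01e-05) and, for Spp1, 3.26 (SE 0.90, edgeR adjusted p = 0.00832), with 10.8% of all genes higher. Within WT the same differences were 5.34, 4.95, 7.19 and 5.86, with 16.8% of all genes higher. The test of WT against Wnt5a differences is the one above, which 0 members passed. Spp1 within Wnt5a did not pass without OBC Wnt5a replicate 11 (2.98, edgeR adjusted p = 0.0976) or with no filter (2.68, edgeR adjusted p = 0.0987).

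The genes that act with these members were read from 4 lists. Of 30 genes of collagen processing, 5 were tested: the chaperone Serpinh1, the prolyl hydroxylase subunit P4hb, the isomerase Ppib, the lysyl hydroxylase Plod1 and Pcolce, which helps to trim procollagen. All 5 were negative in OBC Wnt5a against WT (median -0.75) and 0 passed edgeR's test, with 0 at an unadjusted p under 0.05. Serpinh1, the best counted, had 814 ± 484 CPM in Wnt5a and 1101 ± 451 in WT (-0.54, SE 0.48, edgeR adjusted p = 0.815). None of the 5 was higher in OBC than in the other populations by the test either, in contrast with the collagen chains they serve.

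Of 38 other bone matrix genes, 33 were in the table and 5 were tested. Tnc and Cdh11 passed the filter only through OBC libraries, and Mgp and Serpinf1 had a single library outside OBC at the filter's level, so their levels are given without the test between populations. The adhesive glycoprotein Tnc was at 1201 ± 941 CPM in OBC WT, 20.7 ± 19.3 in EC WT and 21.3 ± 36.8 in MSC WT. The mineralisation inhibitor Mgp was at 1361 ± 1086, 95.99 ± 50.5 and 191 ± 142 CPM in the same order. Cdh11, osteoblast cadherin, was at 608 ± 199 CPM in OBC WT and had 0 UMIs in all EC libraries. By genotype in OBC 4 of the 5 were negative (median -1.10), but Cdh11 had entered the test only through OBC WT libraries and Tnc only through OBC libraries. That count and median are thus no support by themselves. Of the 5, 0 passed edgeR's test and 1 had an unadjusted p under 0.05. That 1 was the proteoglycan Bgn, with 194 ± 336 CPM in Wnt5a and 757 ± 416 in WT (-1.93, SE 0.78, edgeR adjusted p = 0.333). Its UMIs were 15, 12 and 2 in WT and 6, 0 and 0 in Wnt5a, so that without Wnt5a replicate 10 that group was at 0 and Bgn passed (edgeR adjusted p = 0.0223). Tnc had 575 ± 433 CPM in Wnt5a and 1201 ± 941 in WT (-1.10, SE 0.67, edgeR adjusted p = 0.662).

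Of 22 mineralisation genes 18 were in the table and 3 were tested, and of 43 osteoblast regulators 38 and 4. By genotype in OBC 0 passed edgeR's test and 0 had an unadjusted p under 0.05, with medians of -0.26 and -0.23. Between populations the carbonic anhydrase Car2 was higher in OBC (1.36, SE 0.40, edgeR adjusted p = 0.00994), as were 19.3% of all genes, and Anxa2, an annexin, was lower (-1.44, SE 0.41, edgeR adjusted p = 0.00371). Pth1r, the receptor for parathyroid hormone, passed the filter only through OBC libraries, with 33.7 ± 4.19 CPM in MSC WT and 0 UMIs in EC WT, and stood at 267 ± 310 CPM in OBC Wnt5a and 562 ± 230 in OBC WT (-1.07, SE 0.90, edgeR adjusted p = 0.795). Cebpb, which also passed through OBC alone, was at 571 ± 180 CPM in OBC WT and 582 ± 177 in OBC Wnt5a (0.08, SE 0.73), while Atf4 and Mef2c did not pass in either comparison.

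Over the 18 libraries, the 10 genes whose levels were most like the mean profile of the 5 tested members were mt-Nd1, mt-Nd4, mt-Nd2, Pth1r, mt-Cytb, Cdh11, mt-Co1, mt-Nd5, Cxcl14 and mt-Rnr1, with Pearson r from 0.965 down to 0.896. Of these, 7 belong to the mitochondrial genome, the other 3 being Pth1r, Cdh11 and Cxcl14. Cxcl14, a chemokine, also passed the filter through OBC libraries alone and had -1.39 by genotype in OBC (SE 0.67, edgeR adjusted p = 0.545). Since the libraries share population, genotype and depth, these likenesses are a description.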

How the data were processed

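Per the labels' protocols, sorted niche cells were lysed and their cDNA was barcoded, pooled, amplified and made into libraries with Nextera XT. The deposited table holds raw counts of UMIs per Ensembl gene and library. The submitters' processing notes name STAR and featureCounts on mm10 (GRCm38) without versions; the handling of UMI duplicates, the annotation release and the strand setting: not given in the sources used here. The table has 18194 genes, of which 2264 are 0 in all libraries; 28 spike-in entries (0 to 8 UMIs per library) were kept out of totals, and 17973 IDs matched a symbol. A table of stem and progenitor cells in the series was not used here.

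From the deposited counts, all 18 libraries entered 1 fit with 6 group means in edgeR 4.0.16 (R 4.3.3): filterByExpr by group (minimum count 10, minimum total 15), totals over the 1099 genes left, TMM scaling, robust quasi-likelihood test, and Benjamini-Hochberg adjustment over all 1099 genes in each of 8 comparisons. A gene passed at an adjusted p under 0.05. Standard errors were taken as |log2FC| over the square root of F. The common biological coefficient of variation was 0.318. Filtering on group levels means that Spp1 was tested through its OBC WT libraries and Ibsp through its OBC libraries. The script was tested on simulated data. Intervals are exact at 95% confidence (Clopper-Pearson for shares and ratios of pooled counts, Poisson for rates) and cover counting error only; 3 UMIs were taken as the floor. Promoters are from RefSeq and gene positions from GENCODE, both GRCm38.

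The members and gene lists were chosen with earlier results of these data known. Named genes are the 10 members, up to 6 tested genes of each of 4 lists with the smallest p in OBC by genotype, and the 10 tested genes closest to the members' mean profile (log2 CPM, prior count 2). Alternatives were RLE scaling, plain totals, totals over all genes (chosen after seeing the data), no filter, DESeq2 1.42.0, limma voom 3.58.1, removal of mitochondrial, haemoglobin and immunoglobulin genes, fits of 1 population, and each library left out.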

Additional observations from a re-analysis of the deposited data

How the results depend on the processing

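Depth is a limit: in OBC a gene below about 3 UMIs per library could not be compared, which leaves Bglap2, Sp7 and Runx2 undecided. By genotype Alpl is undecided too (ratio interval 0.788 to 34.7). In OBC Wnt5a, Bglap rests on 4 UMIs in all and Spp1 on 2 to 4 UMIs per library. The genotype comparison is carried by 6 libraries. Of the 5 tested members, the number lower in OBC Wnt5a was 3 with edgeR and TMM, and 1 with plain totals, with limma voom and without mitochondrial, haemoglobin and immunoglobulin genes, and 4 with only the 6 OBC libraries, where Ibsp passed too (-2.08, adjusted p = 0.0371); with 1 library left out it ran from 0 to 4. Members that passed the test of the genotype difference in OBC against the other populations ran from 0 to 1. Higher in OBC were 4 members, and 4 to 5 in the alternatives, where Bglap passed the filter and the test in some; within Wnt5a it was 3 to 4. The call of Col1a2 was lost in 11 of 26 alternatives and that of Spp1 in 8, where the cause was not tested. All genes passing in OBC by genotype were 14, but 9 with plain totals and 3 without the genes named above; in MSC by genotype they were 5, but 9 with RLE, 0 with no filter, 45 with DESeq2, 11 with limma voom, 18 without those genes and 71 in MSC alone, and in EC 4 but 2 in EC alone. With 1 library left out these ran from 3 to 17 in OBC, 0 to 42 in MSC and 2 to 22 in EC, from 5 to 13 for the difference of genotype changes (5 without OBC WT replicate 8 or OBC Wnt5a replicate 12), from 68 (without OBC Wnt5a replicate 11) to 239 within Wnt5a, and from 27 to 80 (without EC WT replicate 14) for MSC against EC. Between populations they were 506 but 789 with no filter, within Wnt5a 197 but 126, for MSC against EC 40 but 79, and for the difference of genotype changes 10 but 2 without those genes.

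Directions turned only for values that had not passed. For Sparc in OBC against the others they were -0.021 with RLE, -0.39 with plain totals, -0.44 with no filter and -0.018 with DESeq2 (and -0.085 within WT with plain totals), with -0.24 to 0.23 (within WT -0.16 to 0.78) with 1 library left out. With limma voom Col1a1 in EC was 0.084 and Spp1 in EC 0.51. With 1 library left out, the genotype values in EC ran from -0.38 to 0.035 for Col1a1, -0.10 to 1.07 for Col1a2, -1.15 to 1.47 for Ibsp and -2.70 to 2.12 for Spp1. In MSC they ran from -1.43 to 0.065 for Col1a1 and -0.48 to 3.83 for Spp1, and for Spp1 in MSC against EC from -0.61 to 2.30. In OBC they ran from -1.18 to 0.61 for Anxa2, -0.18 to 0.29 for Cebpb, -0.91 to 0.10 for Mef2c, -0.71 to 0.16 for Ppib and -0.21 to 1.95 for Serpinf1; the cause was not tested. Scaling by spike-ins was not run, since libraries held 0 to 8 spike-in UMIs where 50 were asked for. No paired analysis was possible because the replicate numbers of the groups compared are all different and the labels name no animal or batch that libraries share.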
